A study of Mus musculus with 6 samples.

Results

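The 9 genes described here, Ehd3, Gata5, Cyp26b1, Fgfr3, Clec14a, Pi16, Sdpr, Atp13a3 and Slc6a6, are 9 of 23998 gene symbols counted in single cells of mouse kidney. They were chosen by name, as genes tied to glomerular endothelial cells, from results on these same wells, and all 9 were found in every plate. Their levels and changes in the endothelia gate are therefore a description. The fit over all genes covers them too, but nothing is read from its calls for them. The study sorted cells of digested kidney into 6 plates and sequenced them with Smart-seq2, in which each well holds 1 cell and reads cover the full length of its transcripts. The cells came from uninjured mice (called healthy here) and from mice at day 2 and day 10 of unilateral ureteric obstruction (UUO), in which 1 ureter is ligated, so that urine backs up, tubules are injured and the kidney scars. Each plate held 1 mouse of each condition, and each well was labelled as a mesenchyme gate or an endothelia gate cell. The well labels carry a number from 1 to 4, which was read as the mouse within a condition (an assumption), and n = 4 per gate and condition rests on it. The labels name no strain, age, sex, gate antibody or sham operation, and the healthy mice are the controls at both times.

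Glomerular endothelial cells line the capillary tuft where blood is filtered, and they are thin, fenestrated and distinct from the endothelium of the peritubular capillaries, the arterioles and the vasa recta. Ehd3 encodes an ATPase that shapes recycling endosomes and within the kidney is known as a marker of the glomerular endothelium. Gata5 encodes a zinc finger transcription factor, and Cyp26b1 an enzyme that breaks down retinoic acid. Fgfr3 is a receptor for fibroblast growth factors, Clec14a a lectin of the endothelial cell surface that binds the matrix protein Mmrn2, Pi16 a secreted or membrane-anchored protein of the CAP superfamily, and Sdpr (Cavin2 in newer annotation) a coat protein of caveolae. Atp13a3 encodes a transporter of the family that moves polyamines, and Slc6a6 the taurine transporter.

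Of 2292 sorted wells, 2235 held at least 1000 genes and 20000 reads on genes, 1129 of them in the endothelia gate (380 healthy, 368 at day 2, 381 at day 10) and 1106 in the mesenchyme gate. Counts of these wells were added per gate, condition and number, which gave 12 sums per gate of 21981703 to 56326210 reads in the endothelia gate and 19382742 to 47827752 in the mesenchyme gate. Levels are CPM, the count of a gene relative to all reads on genes of the sum, scaled by TMM, a method that corrects for differences in composition. Pecam1 and Pdgfrb, a mural and fibroblast receptor, were chosen here as checks of the gates, since the labels name no marker. Pecam1 lay between 1805 and 2932 CPM in the endothelia gate sums and between 0.541 and 12.5 CPM in the mesenchyme gate sums. Pdgfrb lay between 0.274 and 59.8 CPM in the endothelia gate sums and between 649 and 1188.5 CPM in the mesenchyme gate sums. Depth and tubule transcripts moved with condition. The median well of the endothelia gate held 353766.5 reads in healthy, 386018.5 at day 2 and 447221 at day 10. Tubule transcripts (8 markers, Kap, Umod and Slc34a1 among them) summed to 63.0 to 2543 CPM in healthy, 35.7 to 263 CPM at day 2 and 1.49 to 28.5 CPM at day 10, and Havcr1, the injured-tubule marker, was listed at 0 in every healthy endothelia gate sum. Each condition and gate also filled the same 4 columns of every plate, so that condition and plate columns cannot be told apart.

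Sequence upstream of 7 of the 9 genes was matched in RefSeq (GRCm38.p6), Sdpr under the symbol Cavin2; no entry was matched for Atp13a3 and Slc6a6. The stretches below belong to Clec14a, Sdpr, Cyp26b1 and Gata5. These 4 are shown because their 250-base windows held 150 bases outside annotated exons, while those of Ehd3, Pi16 and Fgfr3 lay wholly in annotated exons. Each stretch is 150 bases outside all annotated exons, written 5′ to 3′ on the strand of its gene, with GGAA or its other-strand form TTCC, the core letters of ETS factor sites, in capitals. They lie at chr12:58269291-58269440 (minus strand, Clec14a), chr1:51288976-51289125 (plus strand, Sdpr), chr6:84593909-84594058 (minus strand, Cyp26b1) and chr2:180334700-180334849 (minus strand, Gata5).
Clec14a: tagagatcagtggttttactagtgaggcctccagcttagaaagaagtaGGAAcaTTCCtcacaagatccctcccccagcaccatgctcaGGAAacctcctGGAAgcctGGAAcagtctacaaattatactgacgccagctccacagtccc
Sdpr: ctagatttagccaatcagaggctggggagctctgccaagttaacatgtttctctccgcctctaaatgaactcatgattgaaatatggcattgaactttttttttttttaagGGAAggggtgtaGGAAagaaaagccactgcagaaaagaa
Cyp26b1: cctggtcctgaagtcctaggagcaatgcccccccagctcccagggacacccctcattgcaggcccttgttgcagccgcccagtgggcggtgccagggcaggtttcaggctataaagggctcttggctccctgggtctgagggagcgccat
Gata5: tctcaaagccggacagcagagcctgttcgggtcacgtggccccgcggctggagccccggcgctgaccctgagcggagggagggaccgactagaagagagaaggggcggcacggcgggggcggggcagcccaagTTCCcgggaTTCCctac
Over the full 250 bases before the start, Clec14a held 6 GGAA matches on both strands together, and 8.69% of 32851 RefSeq promoter windows of that length held as many. Sdpr held 4, Gata5 2 and Cyp26b1 1, and 93.5% of all windows held at least 1. GATA (other strand TATC), the core letters of GATA factor sites, was found in 3 of the 7 genes' windows (Ehd3, Pi16 and Sdpr) and in 53.6% of all windows. These matches are letters in a window, not measured binding sites.

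In healthy endothelia gate cells the 9 genes spanned a wide range of levels per length of annotated exons. Ehd3 (chr17:73804134-73832094 in mm10) was highest at 530 ± 208 CPM per kb (SD, n = 4), with sums from 326 to 805. Sdpr (chr1:51289126-51302960) followed at 266 ± 53.0 CPM per kb, then Slc6a6 (chr6:91684053-91759066) at 197 ± 38.1, Pi16 (chr17:29317680-29330593) at 177 ± 38.9 and Clec14a (chr12:58264720-58269290) at 164 ± 18.9. The sums of Sdpr, Slc6a6, Pi16 and Clec14a overlapped those of their neighbours in this order, and only Ehd3 stood clear of all others. Cyp26b1 (chr6:84571414-84593908) at 52.2 ± 9.12 and Gata5 (chr2:180325133-180334699) at 51.1 ± 24.7 CPM per kb overlapped each other and lay below the 5 genes above. Fgfr3 (chr5:33721674-33737068) at 15.0 ± 6.91 and Atp13a3 (chr16:30312423-30405975) at 13.3 ± 3.26 CPM per kb were lowest and overlapped.

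Ehd3, the endosome ATPase, had 5279, 3700.3, 2139.5 and 2783 CPM in the healthy endothelia gate sums of numbers 1 to 4, 3842, 6798, 2032 and 2414 CPM at day 2, and 2972.5, 2653, 2474 and 2180.5 CPM at day 10. The 3 conditions overlapped, and the highest sum of all was a day 2 sum. Its log2 difference from healthy was 0.06 ± 0.24 (SE) at day 2 and -0.35 ± 0.24 at day 10. The sign at day 2 was not stable: the value was -0.26 without number 2, -0.13 without wells that held tubule transcripts and -0.08 with sums per plate.

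Gata5, the transcription factor, had 198, 268, 104 and 99.9 CPM in healthy, 177, 295, 114 and 169.6 CPM at day 2 and 101.1, 95.7, 97 and 118 CPM at day 10. Numbers 1 and 2 were high in healthy, while the day 10 sums lay close together near the low healthy sums. The log2 difference from healthy was 0.20 ± 0.26 at day 2 and -0.56 ± 0.27 at day 10, with overlap at both times.

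Cyp26b1, the retinoic acid hydroxylase, had 287, 339.95, 268 and 222 CPM in healthy, 27.9, 116, 132 and 91.7 CPM at day 2 and 61.8, 9.61, 149 and 152 CPM at day 10. Every obstructed sum was below every healthy sum at both times. The sums differed widely among themselves, with number 1 low at day 2 and number 2 low at day 10, and the SE of the log2 difference was the largest among the 9 genes (-1.79 ± 0.65 at day 2 and -1.83 ± 0.67 at day 10). Day 10 and day 2 sums overlapped (log2 difference -0.05 ± 0.66).

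Fgfr3, the growth factor receptor, had 93.5, 177, 99.2 and 60.7 CPM in healthy, 47.8, 81.2, 81.1 and 40.5 CPM at day 2 and 25.0, 23.3, 40.0 and 26.4 CPM at day 10. The day 2 sums overlapped the healthy sums, and the day 10 sums lay below both other conditions. The log2 difference was -0.77 ± 0.28 at day 2 and -1.82 ± 0.29 at day 10 against healthy, and -1.05 ± 0.28 between day 10 and day 2.

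Clec14a, the surface lectin, had 688, 721, 877 and 714 CPM in healthy, 373, 337, 405 and 463 CPM at day 2 and 176, 244, 185 and 245 CPM at day 10. The 3 conditions formed 3 separate ranges in descending order, with no overlap. Its log2 difference from healthy was -0.93 ± 0.16 at day 2 and -1.83 ± 0.16 at day 10, and -0.89 ± 0.16 between day 10 and day 2.

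Pi16, the CAP superfamily protein, had 1374, 987, 1297 and 855 CPM in healthy, 917, 1298.5, 700.2 and 768 CPM at day 2 and 525, 515, 649 and 457 CPM at day 10. Day 2 overlapped healthy, with number 2 high, and the day 10 sums lay below both. The log2 difference from healthy was -0.29 ± 0.20 at day 2 and -1.06 ± 0.20 at day 10.

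Sdpr, the caveola coat protein, had 959.85, 933, 622 and 733.8 CPM in healthy, 422, 533, 354 and 341 CPM at day 2 and 264, 353, 348 and 411 CPM at day 10. Both obstructed groups lay below healthy and overlapped each other. The log2 difference was -0.98 ± 0.19 at day 2 and -1.22 ± 0.19 at day 10, and -0.24 ± 0.19 between day 10 and day 2.

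The transporters were lower as well. Atp13a3 had 162, 155, 122 and 91.7 CPM in healthy, 99.8, 89.2, 49.4 and 87.0 CPM at day 2 and 82.3, 27.3, 30.0 and 52.2 CPM at day 10. Its day 2 sums overlapped healthy (log2 difference -0.74 ± 0.29), and its day 10 sums did not (-1.57 ± 0.30). Slc6a6 had 1400.6, 1447, 2104 and 1709 CPM in healthy, 626, 615, 1064 and 1032 CPM at day 2 and 537, 291, 925 and 557 CPM at day 10. Both obstructed groups of Slc6a6 lay below healthy (-1.03 ± 0.19 and -1.61 ± 0.19), and they overlapped each other, with number 3 the highest in healthy and at both times.

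**Figure D1:**
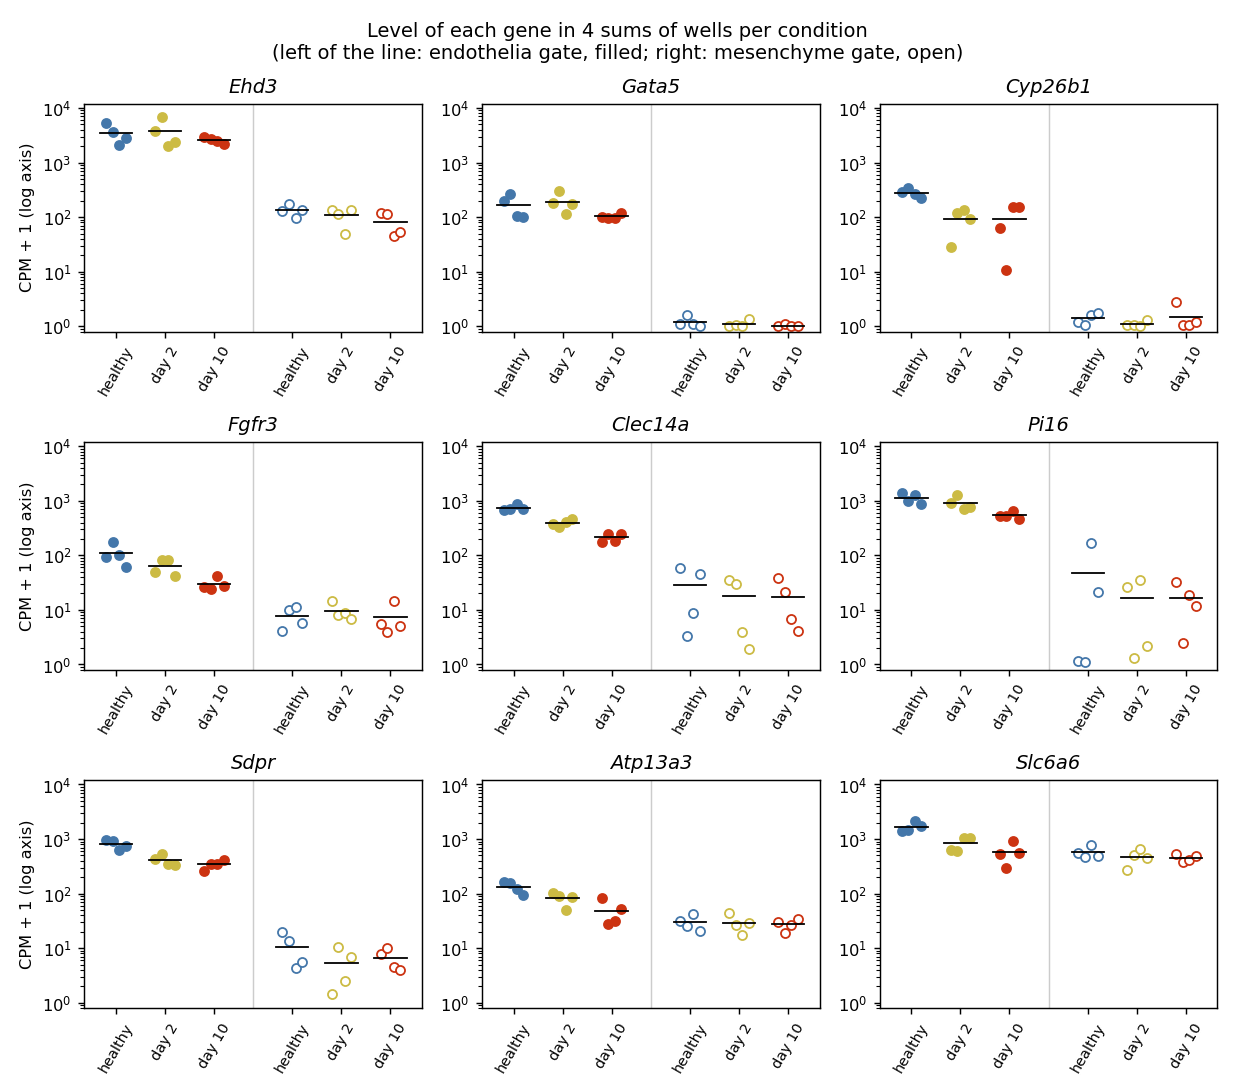
Level of each gene (CPM + 1, log axis) in the 4 sums per condition of the endothelia gate (filled points) and the mesenchyme gate (open points); bars are means. Clec14a forms 3 separate ranges in the endothelia gate, from 688 to 877 CPM in healthy down to 176 to 245 CPM at day 10, while Ehd3 overlaps across conditions.

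Read together, 4 of the 9 genes (Cyp26b1, Clec14a, Sdpr and Slc6a6) had all day 2 sums below all healthy sums, where 2.28% of the 14026 genes tested did so, and 7 of 9 (all but Ehd3 and Gata5) had all day 10 sums below healthy, where 3.23% did so. In the fit over all genes, 6 of the 9 (Clec14a, Slc6a6, Fgfr3, Sdpr, Atp13a3 and Pi16) passed the threshold (edgeR quasi-likelihood test, Benjamini-Hochberg adjusted p under 0.05) at day 10 against healthy, where 0.649% of genes passed in either direction and 0.328% as lower. None passed at day 2, where 0.15% passed in either direction and 0.0356% as lower, nor between day 10 and day 2, where 0.0143% passed. The choice of the genes used these contrasts, so nothing is read from these counts. The median log2 difference of the 9 genes was -0.77 at day 2 and -1.57 at day 10, beside -0.02 for all genes tested at both times. Of the 6 genes, Clec14a alone passed at day 10 under each of the 12 alternative settings, among them the omission of any number. All 6 passed with DESeq2, with no filter, with sums per plate and with wells whose gate markers matched their gate. The number that passed was 4 with stricter wells, and 3 without number 2 or without the number as a block. It was 2 without number 3 or without wells that held tubule transcripts. It was 1 without number 1, without number 4 or with spike-in scaling. These calls come from the contrasts that chose the genes, so nothing is read from them for any gene, Clec14a included.

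The median difference at day 2 was smaller where wells with tubule transcripts were left out (wells with at least 100 CPM over the 8 tubule markers: 184 healthy, 80 at day 2 and 11 at day 10), at -0.56. At day 10 the differences were about as large without these wells: -1.89 for Clec14a, -1.45 for Sdpr, -1.90 for Cyp26b1, -1.74 for Fgfr3 and -1.47 for Slc6a6. With scaling on the ERCC spike-in RNA in place of TMM, the median of all genes tested was 0.14 at day 2 and 0.16 at day 10, and Clec14a lay at -1.66 and Slc6a6 at -1.42 at day 10. In sums of this kind, fewer cells of a type and less RNA per cell cannot be told apart, and the wells were read one by one for that reason.

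The share of wells with a read was lower for some genes and not for others. To compare conditions of unequal depth, each well was thinned to 100000 reads and shallower wells were left out, which kept 364 healthy, 357 day 2 and 375 day 10 wells of the endothelia gate. Clec14a was read in 71.4%, 57.1% and 40.0% of these wells in healthy, at day 2 and at day 10 (76.1%, 61.7% and 45.1% before thinning). In the mesenchyme gate, taken as the background for free RNA, Clec14a was read in 3.61% to 7.71% of thinned wells, at median depths before thinning of 312617 to 377554 reads. Clec14a thus differed both in the share of wells and in the level where it was read, whose median before thinning was 724, 459 and 347 CPM.

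Pi16 showed another pattern. Its share of wells was 75.0%, 72.3% and 71.7% after thinning, while the median level in wells with a read was 1236.5, 904 and 503 CPM before thinning. All medians in this paragraph are of wells before thinning, which were deepest at day 10. The part of depth in these medians was not tested. Gata5 likewise was read in 31.9%, 37.0% and 33.9% of wells, at a median of 425, 323 and 199 CPM in those wells, and in at most 0.833% of mesenchyme gate wells. The shares of Ehd3 were 79.7%, 72.5% and 79.7%, with medians of 2453, 2830.2 and 1807 CPM. In the mesenchyme gate Ehd3 was read in 38.3%, 38.6% and 33.4% of thinned wells.

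Cyp26b1 was read in 52.5%, 35.0% and 35.5% of thinned wells, Sdpr in 79.1%, 61.9% and 62.4%, and Fgfr3 in 32.4%, 22.4% and 17.1%. For these 3 genes the share was lower at day 2 than in healthy, with a similar share at day 10 for Cyp26b1 and Sdpr and a lower one for Fgfr3. The mesenchyme gate shares of Cyp26b1, Sdpr and Fgfr3 were at most 3.14%, 6.29% and 6.08%. By number, before thinning, the share of Cyp26b1 wells at day 10 was as low as 14.1%.

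Atp13a3 was read in 35.4%, 31.7% and 22.1% of endothelia gate wells, and in 18.3%, 20.6% and 25.7% of mesenchyme gate wells, so that the endothelia gate share was not the higher one at day 10. Slc6a6 was read in 87.9%, 77.6% and 70.9% of endothelia gate wells and in 75.1%, 79.4% and 82.0% of mesenchyme gate wells. Both transporters were thus read in many wells outside the endothelia gate, as was Ehd3, whose mesenchyme gate shares were above those of Atp13a3.

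**Figure D2:**
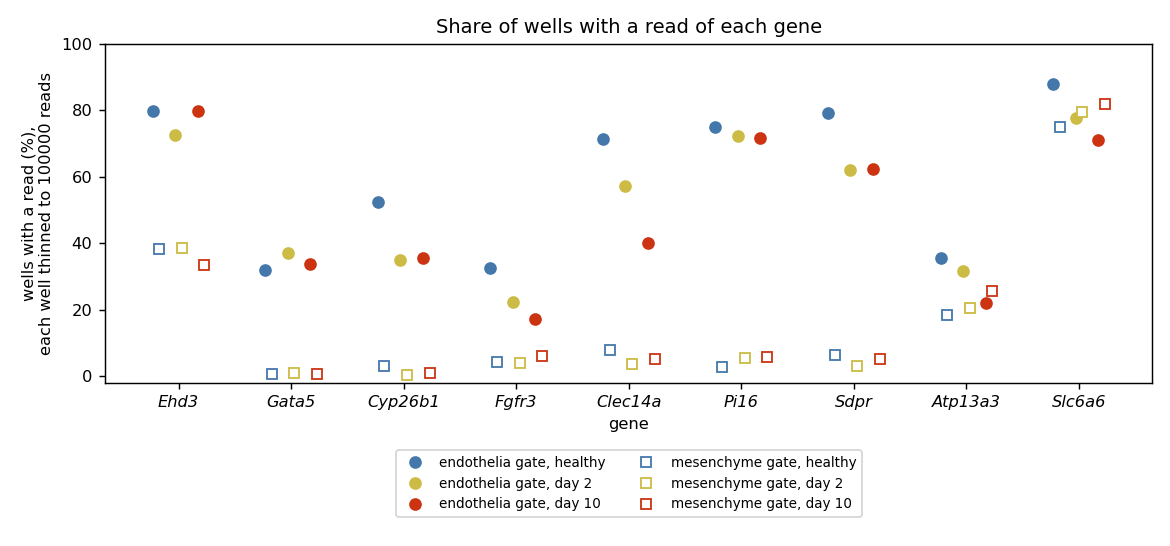
Share of wells (%) with a read of each gene after thinning each well to 100000 reads, by gate and condition. Clec14a goes from 71.4% to 40.0% of endothelia gate wells, while Pi16 and Gata5 shares differ by a few points.

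A further question was whether the 9 genes mark the same cells. Within healthy endothelia gate wells (n = 380, whose values share library and depth), Ehd3 ranked together with Gata5 (Spearman's rho 0.55), Cyp26b1 (0.48), Pi16 (0.44) and Sdpr (0.37). It did not rank with Clec14a (0.13), Atp13a3 (0.10) or Fgfr3 (0.03), and Slc6a6 ran the other way (-0.26). The correlation of each gene with the reads of the well lay between -0.01 and 0.27. Pairs without Ehd3 followed this division in part. Among Gata5, Cyp26b1, Pi16 and Sdpr, rho lay between 0.26 (Gata5 with Cyp26b1) and 0.42 (Gata5 with Pi16). Pairs across the division lay between -0.04 and 0.29. The highest were 0.29 for Pi16 with Atp13a3, 0.29 for Sdpr with Atp13a3 and 0.27 for Pi16 with Fgfr3. Slc6a6 lay between -0.04 and 0.20 with the 7 genes other than Ehd3. The 9 genes did not all rank together across wells, so they are called by name here.

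**Figure D3:**
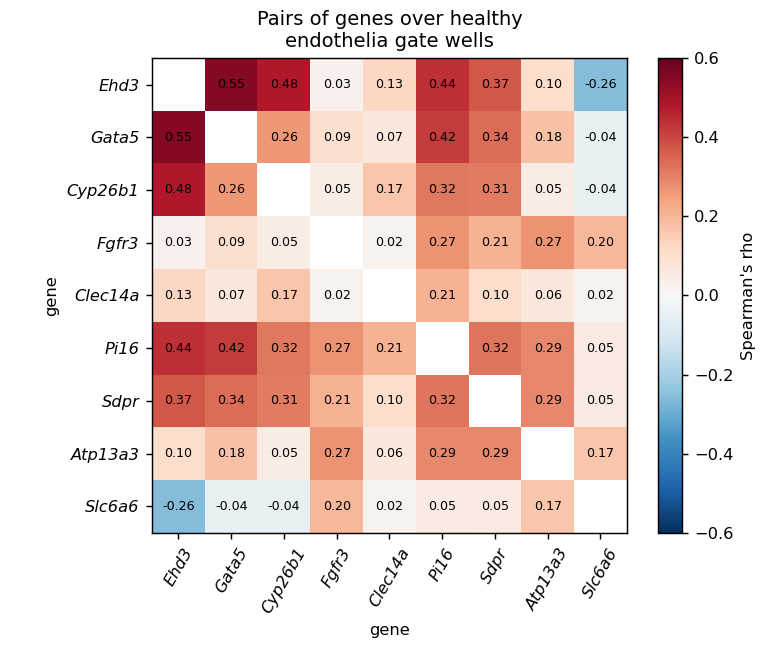
Spearman's rho between each pair of the 9 genes over 380 healthy endothelia gate wells (colour scale from -0.6 to 0.6). The highest value is between Ehd3 and Gata5 (0.55) and the lowest between Ehd3 and Slc6a6 (-0.26).

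The wells were then divided by Ehd3 itself. At least 1 read of Ehd3 was present in 336 healthy endothelia gate wells, but also in 187 of 364 healthy mesenchyme gate wells, so a level of 100 CPM was used, chosen after the spread over wells was seen. In the mesenchyme gate that level was still reached in 87 of 364 healthy wells (23.9%), 90 of 366 at day 2 (24.6%) and 74 of 376 at day 10 (19.7%). It was thus not confined to the endothelia gate. The counts that follow are of the endothelia gate. At least 100 CPM of Ehd3 was reached in 246 of 380 healthy wells (64.7%), 232 of 368 at day 2 (63.0%) and 271 of 381 at day 10 (71.1%), and 7, 7 and 10 wells lay between 50 and 200 CPM. The share ranged over numbers from 50% to 81.7% in healthy, 48.4% to 90.5% at day 2 and 59.4% to 79.7% at day 10. The conditions overlapped in this share.

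Within the wells with at least 100 CPM of Ehd3, all 8 other genes had day 10 sums below every healthy sum (unscaled CPM), where 2.87% of the 14025 other genes tested did so. The choice of the genes used the change of the whole gate, which holds these wells, so nothing is read from this count. Clec14a lay at 772 ± 90.6 CPM (SD, n = 4) in healthy, 398 ± 87.2 at day 2 and 168 ± 23.9 at day 10. Sdpr lay at 967 ± 61.4, 516 ± 41.4 and 354 ± 67.0 CPM, and Pi16 at 1292 ± 218, 1102 ± 61.6 and 541 ± 99.8 CPM. Gata5, which overlapped in the whole gate, lay at 242 ± 95.0, 269 ± 34.4 and 136 ± 35.4 CPM. Its lack of overlap depended on the cut, which was chosen after the data were seen. In wells with at least 1 read of Ehd3, the planned cut, Gata5 lay at 119 to 284 CPM in healthy and 94.9 to 141.6 CPM at day 10, with overlap. No other of the 8 genes overlapped at that cut.

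The other 4 genes followed in these wells. Slc6a6 lay at 1194 ± 121, 506 ± 76.2 and 356 ± 143 CPM, and Atp13a3 at 145 ± 34.1, 52.5 ± 19.7 and 32.3 ± 12.8 CPM. Cyp26b1 lay at 345 ± 89.1, 118 ± 60.5 and 113 ± 94.9 CPM, and Fgfr3 at 114 ± 44.2, 49.3 ± 17.0 and 24.3 ± 9.04 CPM. Pecam1 in the same wells lay at 2124 ± 398, 2353 ± 183 and 2648 ± 110.1 CPM, with overlap, and Tbx3, a transcription factor of glomerular endothelium that is not among the 9, at 307 ± 77.0, 420.1 ± 53.6 and 284 ± 23.2 CPM. Plvap, a protein of fenestral diaphragms and here a peritubular capillary marker, lay in these wells at 439.5, 30.1, 2199 and 2159 CPM in numbers 1 to 4 of healthy, 1106 ± 880 CPM at day 2 and 260.1 ± 228 CPM at day 10 (31.5 to 499). Its groups overlapped, and its part in the levels of the 9 genes was not tested.

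In wells under 100 CPM of Ehd3, 2 of the 8 genes had day 10 sums below every healthy sum, where 1.76% of the other genes tested did so, and nothing is read from this count either. These were Clec14a, at 703 ± 212 CPM in healthy and 355 ± 134 at day 10, and Slc6a6, at 2509 ± 399 and 1134.5 ± 441 CPM. In healthy mice Slc6a6 was higher in these wells than in the Ehd3 wells, and the mean of each of the other 7 genes was lower. Gata5 was low, at 7.57 ± 8.60 CPM in healthy, 7.95 ± 11.4 at day 2 and 29.7 ± 47.7 at day 10, where number 2 held 100.2 CPM. Sums of this stratum rest on as few as 6 wells per number.

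**Figure D4:**
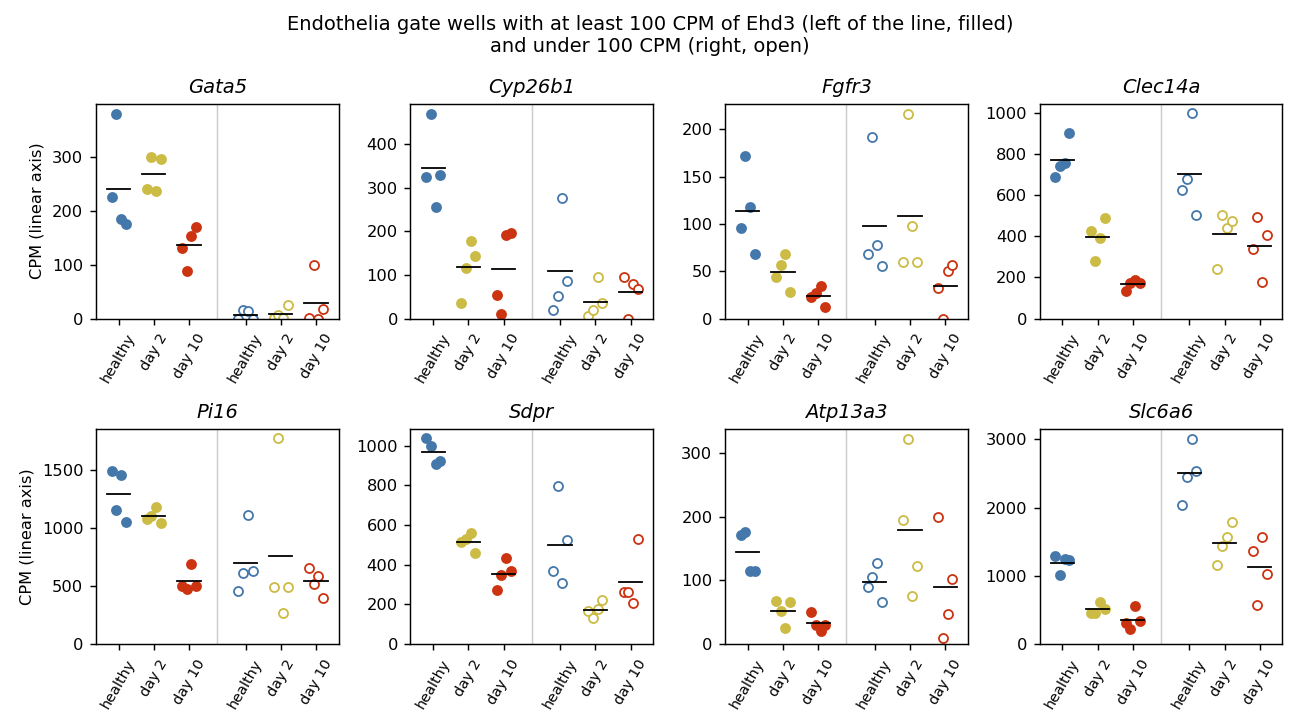
Level (unscaled CPM, linear axis) of the 8 other genes in endothelia gate wells with at least 100 CPM of Ehd3 (filled) and under 100 CPM (open), 1 point per number; bars are means. In the Ehd3 wells every gene has its day 10 points below its healthy points, and Slc6a6 is higher in the wells with little Ehd3.

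Counted per well after thinning, healthy wells with at least 100 CPM of Ehd3 held a read of 5.18 of the 8 other genes on average (4.68 to 5.57 over numbers), against 4.44 (4.19 to 4.81) at day 2 and 3.597 (2.94 to 3.97) at day 10. At least 5 of the 8 were read in 69.6%, 48.9% and 28.7% of these wells. In wells with less Ehd3 the averages were 3.64, 3.10 and 3.38. A split by Tbx3 gave similar values for Clec14a and Sdpr. In wells with a read of Tbx3 (258 healthy, 257 at day 2 and 313 at day 10) Clec14a lay at 761 ± 93.8, 422 ± 119 and 189 ± 30.7 CPM and Sdpr at 898 ± 106, 497 ± 63.0 and 338 ± 54.5 CPM. Gata5 overlapped in these wells, at 150.1 to 312 CPM in healthy and 93.5 to 151.9 CPM at day 10. Tbx3 was read in 58.5% to 60.9% of mesenchyme gate wells as well, so it does not mark the glomerular endothelium alone here.

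The genes whose pattern over the 12 endothelia gate sums was most like each member were found among 7561 genes of sufficient level (Pearson's r of log2(CPM + 1), a description over sums that share conditions). Ehd3 was closest to Unc119b (0.95), Stard8 and Ppap2a, and Gata5 to Thbd (0.94), the thrombin receptor of endothelium, Spty2d1 and Slc25a30. Cyp26b1 was closest to Edc3 (0.93), Eln and Mycn, and Fgfr3 to Magix (0.93), Txnip and Cmip. Pi16 was closest to Hipk2 (0.91), Cd97 and Tspan7, and Sdpr to Thada (0.91), Cd97 and Epha6, so that Cd97, an adhesion receptor, was shared by both.

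Atp13a3 was closest to Elovl5 (0.96), Tspan18 and Tmem168, and Slc6a6 to Nr3c2 (0.93), Gas6 and Tm4sf1. Clec14a was closest to Umod (0.92), a transcript of the thick ascending limb and not of endothelium, then to Ly6c1 and Cops7b. Umod went from 717 ± 508 CPM in healthy to 5.46 ± 10.6 CPM at day 10. Its part in the Clec14a values was not tested by this measure, and the Clec14a difference without the wells that held tubule transcripts is given above. Over single healthy wells, the genes that ranked most closely with Ehd3 among 5233 genes were Ppap2a (rho 0.71), Plat (0.69), Nrp1 (0.68), Cyp4b1 (0.65) and Emcn (0.64).

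The mesenchyme gate served as reference. TMM scaling was done within each gate and not between the gates, so ratios near 1 do not order the gates. Levels in healthy were 26.3 times higher in the endothelia gate for Ehd3, 83.8 times for Sdpr, 27.0 times for Clec14a, 24.1 times for Pi16 and 15.8 times for Fgfr3, with no overlap. Single numbers weighed on some of these ratios: that of Pi16 was 155 without number 3, and that of Clec14a 43.1 without number 1. Gata5 and Cyp26b1 had at most 0.619 and 1.74 CPM in any mesenchyme gate sum and did not pass the filter on low counts. In healthy mesenchyme gate sums Slc6a6 lay at 467 to 785 CPM. Atp13a3 was lower there, at 20.01 to 41.6 CPM, with a read in 18.3% of thinned wells. The endothelia gate was 2.90 times higher for Slc6a6 and 4.53 times higher for Atp13a3. At day 10 these 2 ratios were 1.27 and 1.79, and the gates overlapped; without number 3 that of Slc6a6 was 0.984.

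Changes in the mesenchyme gate were not part of the rule that chose the genes, so the 7 genes that passed the filter were tested there. None passed at day 2 (0.459% of 14582 genes passed), at day 10 (1.32%) or between day 10 and day 2 (0.048%) with edgeR's quasi-likelihood test. At an unadjusted p under 0.05 there were 0, 1 and 0 of the 7, beside 10.1%, 13.7% and 8.41% of all genes tested. DESeq2 called 0, 1 and 0, beside 3.99%, 8.24% and 2.63% of the genes to which it gave an adjusted p, so 1 of 7 is near the background. Ehd3 had the smallest p: it lay at 132 ± 32.7 CPM in healthy and 81.3 ± 38.6 CPM at day 10, lower in 4 of 4 numbers, with a log2 difference of -0.80 ± 0.25 and an adjusted p of 0.164 (edgeR quasi-likelihood), and of 0.043 with DESeq2. Slc6a6 lay at 574 ± 146, 476 ± 163 and 454 ± 77.3 CPM in healthy, at day 2 and at day 10, with log2 differences of -0.27 ± 0.24 (adjusted p = 0.767, edgeR) and -0.30 ± 0.24 (adjusted p = 0.667, edgeR). Atp13a3 lay at 29.3 ± 9.37, 28.0 ± 10.7 and 26.8 ± 6.58 CPM, with log2 differences of -0.09 ± 0.37 and -0.14 ± 0.37. The difference between the gates' changes was not tested, since the endothelia gate changes were used to choose the genes.

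The other genes of the members' pathways, from lists of related genes that hold none of the 9, were tested in the endothelia gate. Of all 14026 genes tested there, 1195 at day 2 and 1525 at day 10 had an unadjusted p under 0.05 against healthy (edgeR). DESeq2 called 443 and 751 genes at an adjusted p under 0.05. In the retinoic acid list, 0 of 11 tested genes passed at day 2 or day 10 (1 at an unadjusted p under 0.05 each time, and 1 lower with DESeq2 each time), and the list's median log2 change was -0.27 and -0.03. Of the caveola and EHD protein list, 0 of 9 passed (1 at an unadjusted p under 0.05 each time; with DESeq2 0 at day 2 and 1 lower at day 10), with medians of -0.15 and -0.15. Cav1, the main caveolar coat protein of endothelium, lay at 589 ± 121 CPM in healthy and 577 ± 56.3 CPM at day 10. Of the FGF receptor and feedback list, 0 of 15 passed (1 and 4 at an unadjusted p under 0.05; 0 and 2 with DESeq2).

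Among GATA and endothelial transcription factors, 0 of 15 passed at day 2 (edgeR; 4 at an unadjusted p under 0.05, and 1 with DESeq2) and 1 at day 10 (6 and 5). Sox7, an endothelial SOX factor, rose from 206 ± 45.5 CPM to 411 ± 99.4 CPM at day 10 (log2 change 1.00 ± 0.18, adjusted p = 0.0405 with edgeR, higher in 4 of 4 numbers). That call was lost in 8 of 12 alternative settings, with an adjusted p of up to 0.277 (edgeR), and each omission of 1 number was among them. Gata2, another GATA factor of endothelium, lay at 284 ± 76.7 CPM in healthy and 189 ± 20.4 CPM at day 10 and did not pass (adjusted p = 0.232, edgeR).

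In the polyamine list, 0 of 11 passed at day 2 (edgeR; 2 at an unadjusted p under 0.05, and 0 with DESeq2) and 1 at day 10 (2 and 1). Sat1, the enzyme that acetylates polyamines for breakdown and export, rose from 518 ± 134 to 977 ± 200 CPM at day 10 (log2 change 0.91 ± 0.17, adjusted p = 0.0375 with edgeR, higher in 4 of 4 numbers), a call lost in 8 of 12 settings with an adjusted p of up to 0.220 (edgeR). No gene passed among the group XIV lectins and their ligands (0 of 6), the SLC6 transporters and taurine synthesis genes (0 of 6) or the CAP superfamily (0 of 5) at either time by edgeR. At an unadjusted p under 0.05 these lists held 0, 0 and 1 genes at day 2 and 2, 0 and 1 at day 10, and DESeq2 called 1 gene of the CAP list as higher at day 2 and 1 as lower at day 10, and none of the other 2 lists. The median log2 differences at day 2 and day 10 were 0.05 and 0.28 for the lectins, 0.11 and -1.57 for the SLC6 list and 0.05 and -1.70 for the CAP list, with 1 of 6, 6 of 6 and 3 of 5 genes negative at day 10. Most of these genes were low: Csad, an enzyme of taurine synthesis, lay at 43.4 CPM in healthy and 40.3 at day 10, Slc6a8, the creatine transporter, at 21.4 and 16.7 CPM, and the other 4 of the SLC6 list at 4.41 CPM or less. In the CAP list Crispld1 lay at 113.0 ± 46.3 and 34.9 ± 22.2 CPM (log2 difference -1.70 ± 0.57, adjusted p = 0.277 with edgeR, lower in 4 of 4 numbers), and the other 4 genes at 2.14 CPM or less. Mmrn2, the ligand of Clec14a, lay at 785 ± 24.02 CPM in healthy and 969 ± 73.2 CPM at day 10 (adjusted p = 0.381, edgeR).

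Markers of endothelial types gave the setting of these levels in the endothelia gate. Of 10 other glomerular endothelial markers, 0 passed at day 2 or day 10 by edgeR. At an unadjusted p under 0.05 there were 5 and 3 of the 10, beside 1195 and 1525 of all 14026 genes tested, and DESeq2 called 1 as lower each time. Their median log2 difference was -0.42 at day 2, with 8 of 10 negative, and -0.10 at day 10, with 5 of 10 negative. Their summed level was 16006 to 29146 CPM in healthy, 12576 to 41203 at day 2 and 18440 to 35607 at day 10. Of 10 pan-endothelial markers 0 passed (2 and 6 at an unadjusted p under 0.05; 1 and 4 with DESeq2), at 11306 to 15039, 11845 to 14416 and 11592 to 13391 CPM. Of 8 arterial markers 0 passed at day 2 (edgeR; 1 at an unadjusted p under 0.05, and 1 with DESeq2) and 1 at day 10: Dll4, a Notch ligand, rose from 580 ± 128 to 1369.9 ± 241 CPM (log2 change 1.22 ± 0.20, adjusted p = 0.0266 with edgeR, higher in 4 of 4 numbers; lost in 5 of 12 settings, up to 0.275 with edgeR). Of 8 tubule markers 0 passed at day 2 (edgeR; 4 at an unadjusted p under 0.05, and 4 with DESeq2) and 2 passed as lower at day 10: Umod, given above (adjusted p = 0.0236, edgeR), and Slc34a1, the phosphate transporter of the proximal tubule, from 70.8 ± 65.6 to 0.118 ± 0.123 CPM (adjusted p = 0.0217, edgeR). Both calls were lost without number 1 or number 3. With 1 number left out the adjusted p reached 0.129 for Umod and 0.188 for Slc34a1 (edgeR). Umod was also lost without number 2, without the number as a block and with gate-matched wells, and Slc34a1 without number 4. Both were lost without the wells that held tubule transcripts, but these 2 genes helped to define those wells, so that loss was built in. Over all settings the adjusted p reached 0.513 for Umod and 0.480 for Slc34a1 (edgeR).

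None passed with edgeR at either time among 5 peritubular capillary markers (1 and 3 at an unadjusted p under 0.05 at day 2 and day 10; 0 and 1 with DESeq2), 3 vasa recta markers (0 and 1; 0 and 1 with DESeq2; median log2 difference -0.91 and -2.82, with 3 of 3 negative each time) or 3 lymphatic markers (2 and 2; 2 and 1 with DESeq2). None passed among 5 podocyte markers (1 and 0; 1 and 0 with DESeq2), nor among 3 venous, 10 mural and fibroblast and 3 leukocyte markers (0 and 0 by either measure). Aqp1, a water channel among the vasa recta markers, lay at 1346 ± 1118 CPM in healthy and 150.9 ± 85.4 at day 10 (log2 difference -2.82 ± 0.76, adjusted p = 0.153 with edgeR, lower in 3 of 4 numbers). The 3 lymphatic markers had a median log2 difference of 1.39 at day 2 and 2.50 at day 10, with 0 of 3 negative each time. All 5 listed lymphatic markers summed to 138 to 278 CPM in healthy, 333 to 438 at day 2 and 310 to 490 at day 10. Erythrocyte markers did not pass the filter. Summed mural and fibroblast markers lay at 57.1 to 939 CPM in healthy, 35.5 to 409 at day 2 and 58.5 to 242 at day 10, and podocyte markers at 113 to 414, 165 to 1251 and 189 to 1536 CPM. The part of these cell types in the levels of the 9 genes was not tested.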

How the data were processed

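Single cells of 6 plates were counted per gene by the authors and deposited as raw counts with no normalization. The submitters' processing notes name STAR and the genome build mm10, with no version; the counter and annotation are not given in the sources used here. Of 24490 table entries, 771 share 279 symbols and were added per symbol. Wells with at least 1000 genes and 20000 reads were kept, with 12 control wells (251 to 30393 reads) apart; gates are as labelled, no clusters were made and doublets were not called. Counts were summed per gate, condition and number (61 to 127 wells), filtered with filterByExpr, scaled by TMM and tested with edgeR 4.0.16 (quasi-likelihood F test, R 4.3.3, limma 3.58.1) with the number as a block and Benjamini-Hochberg adjusted p under 0.05; DESeq2 1.42.0 was an alternative. The script was tested on simulated data.

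The members and gene lists were chosen with earlier results of these data known. The block rests on the shared plates: same-numbered sums deviated together with a correlation of -0.01 to 0.17 in the endothelia gate and 0.01 to 0.14 in the mesenchyme gate. P-values measure the spread between these sums, which is the spread between mice only if each number marks a mouse. Named genes were the 9 members, up to 3 called genes per list and comparison, the 3 genes most alike each member over sums (mean log2 CPM at least 4; names of predicted genes and pseudogenes left out), the 5 most alike Ehd3 over wells, and gate checks. Tbx3, Cav1, Gata2 and Mmrn2 were named after their values were seen, as were the settings that split wells at 100 CPM of Ehd3 or leave out wells with tubule transcripts. Alternatives left out the block, the filter or 1 number at a time, or used spike-in scaling, sums per plate, stricter wells (2000 genes and 100000 reads) or wells whose gate markers matched their gate (10 CPM). Promoters are from RefSeq, GRCm38.p6, and positions from GENCODE on mm10. Reads carry no molecular identifiers.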

Additional observations from a re-analysis of the deposited data

Results flagged for a closer look

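Within 48 groups of 4 sums, 2 held a sum far from the other 3, where chance gives about 1 group in 20. Fgfr3 in the mesenchyme gate at day 10 was 13.7 CPM in number 3, against 3.00 to 4.61 CPM in the other numbers. Pi16 in the healthy mesenchyme gate was 166 CPM in number 3, against 0.0953 to 20.5 CPM in the others. Wells set aside as controls, which entered no comparison, held reads of 2 of the genes above the 3 reads that a count of 0 allows: 5 reads of Ehd3 over 4 of 12 wells, and 222 reads of Slc6a6 over 5 wells, 216 of them in 1 well of plate 1 that held 30393 reads.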

How the results depend on the processing

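All 351 alternative values of the 9 genes in the endothelia gate stayed within the spread between sums; among them the sign differed for Cyp26b1 between day 10 and day 2 in 4 settings (up to 0.63 without number 2) and for Ehd3 at day 2 in 3. The genes called depended on the setting, and the cause was not tested. Without the replicate block, endothelia gate calls were 12 at day 2 (21 with it), 50 at day 10 (91) and 0 between the times (2), and mesenchyme gate calls 42 (67), 125 (193) and 4 (7). DESeq2 called 443, 751 and 289 genes, and 571, 1155 and 376. Sums per plate, where the mice of numbers 1 and 4 enter as 2 plates each, gave 122, 307 and 49, and 162, 509 and 65. With no filter the endothelia gate gave 65, 167 and 19, and the last mesenchyme gate comparison 31. Without wells that held tubule transcripts (chosen after seeing the data) the counts were 7, 30 and 0, and 22, 89 and 2. Spike-in scaling gave 29 at day 10 in the endothelia gate and 4 in the last mesenchyme gate comparison, and stricter wells 1 in the last endothelia gate one. With spike-in scaling the median of all genes in the mesenchyme gate was 0.25 at day 2 and 0.34 at day 10, a shift of 0.23 and 0.30 from the TMM values. Leaving out 1 number at a time gave 0 to 11, 6 to 58 and 0 to 6 in the endothelia gate, and 16 to 34, 28 to 205 and 0 to 5 in the mesenchyme gate. The median of the 9 genes at day 2 (-0.77) was -0.62 with spike-in scaling and -0.56 without tubule-transcript wells, and -0.94 to -0.72 with 1 number left out.

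In the mesenchyme gate 31 values, none of them called, changed sign with another fit, and with the mean over wells of CPM so did Fgfr3 at day 10 (0.30) and Sdpr at day 10 (0.30). For Atp13a3 at day 2 and day 10 they were 0.17 and 0.19 with spike-in scaling, 0.37 and 0.39 with stricter wells, 0.15 and 0.14 with sums per plate, 0.31 and 0.31 with gate-matched wells, 0.48 and 0.35 without tubule-transcript wells, and 0.31 and 0.11 without number 3. Without tubule-transcript wells Slc6a6 was 0.18 and 0.19, Sdpr 1.03 at day 2 and Fgfr3 1.16 at day 10. Fgfr3 at day 10 was 0.13 with spike-in scaling and 0.23 without number 2, and -0.17 at day 2 without number 1. Pi16 at day 10 was 0.15 with DESeq2, 0.32 with spike-in scaling, 0.00016 with no filter, 0.034 with sums per plate, 0.045 with gate-matched wells, 0.059 without tubule-transcript wells, 1.73 without number 3 and 1.12 without number 4, and at day 2 0.44 and 0.28 without those numbers. Clec14a without number 4 was 0.096 at day 2 and 0.13 at day 10. With 1 number left out, the day 2 and day 10 values reached from -2.66 and -1.96 for Clec14a, -2.27 and -0.91 for Pi16, and -0.29 and -0.42 for Atp13a3, up to the values above; those of Fgfr3 reached 0.75 at day 2 and -0.49 at day 10.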
